A study of Mus musculus with 2 samples.

Results

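The Mir379 to Mir410 cluster is a row of microRNA genes on mouse chromosome 12, on the Mirg side of the imprinted Dlk1-Dio3 region. Its members were chosen by position alone, as all measured genes on the plus strand of chromosome 12 that start between 109700000 and 109760000 (mm10, GENCODE M21). That rule gave 39 of the 2202 microRNA genes in the tables. Small RNA was sequenced from the gastrocnemius, the main calf muscle, of 2 female mice aged 36 days. Both were B6CASTF1/J, a first-generation hybrid of the C57BL/6 and CAST/EiJ strains, with no treatment named. Each gave 1 library, so there is 1 group with replicates 1 and 2 and no comparison of conditions. The labels describe separate females but give them 1 common donor identifier, so differences and SDs between the libraries may be technical.

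A microRNA is cut from a hairpin in a longer transcript. One arm of the hairpin is loaded onto an Argonaute protein, and bases 2 to 8 of that arm, the seed, pair with target messenger RNAs. The genes of this cluster are transcribed from the maternally inherited chromosome, together with long noncoding RNAs such as Meg3, Rian and Mirg, and are repressed on the paternal one. The cluster is found in placental mammals only and is best known for its roles in brain and in metabolism around birth. In the muscle lineage, the transcription factor MEF2 is known to activate the cluster, and the region is known to be active in satellite cells, the muscle stem cells. The counts do not separate the parental alleles. Each sample is whole muscle, so fewer cells of a type and less RNA per cell cannot be told apart.

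The deposited counts are of whole hairpin genes, so reads of the 5p arm and the 3p arm were not separated. RefSeq (GRCm38.p6) held 71 mature forms for 38 of the 39 members, between 19 and 25 bases long. The forms of the 10 members with the most reads are given first, 5′ to 3′, with the seed in capitals, since these members carry nearly all of the signal. The forms miR-376c-3p and miR-487b-3p are named only.

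miR-411-5p, chr12:109710190-109710210, plus strand: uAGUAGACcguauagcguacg
miR-411-3p, chr12:109710225-109710246, plus strand: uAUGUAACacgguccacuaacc
miR-379-5p, chr12:109709065-109709085, plus strand: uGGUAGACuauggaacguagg
miR-379-3p, chr12:109709102-109709123, plus strand: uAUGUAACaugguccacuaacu
miR-541-5p: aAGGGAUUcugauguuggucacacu
miR-541-3p: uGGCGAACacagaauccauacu
miR-382-5p: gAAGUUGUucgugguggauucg
miR-382-3p: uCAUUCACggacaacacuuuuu
miR-376c-5p: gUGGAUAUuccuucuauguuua
miR-299a-5p: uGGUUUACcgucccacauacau
miR-299a-3p: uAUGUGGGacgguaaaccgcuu
miR-369-5p: aGAUCGACcguguuauauucgc
miR-369-3p: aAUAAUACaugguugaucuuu
miR-487b-5p: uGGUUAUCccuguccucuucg
miR-154-5p: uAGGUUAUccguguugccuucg
miR-154-3p: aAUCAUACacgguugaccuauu
miR-409-5p: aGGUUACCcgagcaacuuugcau
miR-409-3p: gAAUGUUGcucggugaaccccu

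The 71 forms held, which do not include every form of the cluster, had 65 different seeds, and 6 seeds occurred in 2 members each. Mir379 and Mir411, neighbours at the start of the cluster, share the 3p seed AUGUAAC, and no mouse form outside the cluster has it. Mir1193 shares its 5p seed with Mir379. The other shared seeds join Mir376c with Mir376b, Mir494 with Mir410, Mir1197 with Mir758, and Mir496a with Mir453. The partners of the forms above and the remaining pairs are shown here so that the shared letters can be compared.

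miR-1193-5p: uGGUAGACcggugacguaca
miR-376b-5p: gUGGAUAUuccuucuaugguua
miR-494-5p: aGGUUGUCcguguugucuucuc
miR-410-5p: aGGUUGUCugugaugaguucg
miR-1197-5p: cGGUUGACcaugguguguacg
miR-758-5p: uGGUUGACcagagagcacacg
miR-496a-5p: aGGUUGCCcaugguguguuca
miR-453: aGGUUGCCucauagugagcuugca

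None of the 71 forms occurred whole at another place in the 1005 mouse hairpins of RefSeq, on either strand, and only hairpins were searched. With up to 1 mismatch 3 forms had a second place. These were miR-376c-5p and miR-376b-5p, each in the hairpin of the other and miR-299a-5p on the opposite strand of its own hairpin. With up to 3 mismatches 12 forms had one, among them miR-379-3p and miR-411-3p. Reads that match several places stand in no gene's count, so the levels of Mir376b, Mir376c and Mir299a are uncertain. Whole hairpins shared a stretch of 20 bases with another place for 6 members: Mir411 with Mir758, Mir376b with both Mir376c and Mir487b, and Mir299a with its own opposite strand. Reads that lie within such a stretch may be missing from the counts too, so Mir411, Mir758 and Mir487b also carry some uncertainty. Mir299a, Mir380, Mir376a, Mir539 and Mir409 also overlap a microRNA gene on the minus strand. In the counts without regard to strand these 5 were at 0, and no member had a read on the opposite strand.

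Gene-assigned reads numbered 1593787 in replicate 1 and 2078101 in replicate 2. Reads matching several places were 75.4% and 77.6% of all reads and stayed outside these totals. Of 2202 genes, 273 were detected, meaning at least 10 reads in both libraries. Listed muscle microRNAs such as Mir206 were present, with 2.20% and 6.87% of gene-assigned reads and 6 of 7 detected. Listed smooth muscle microRNAs held 12% and 6.25%, endothelial Mir126a 8.82% and 11.3%, erythroid microRNAs 3.73% and 0.898%, and leukocyte microRNAs 0.142% and 0.209%. The nerve and brain list held 0.152% and 0.0539%, with 1 of 9 genes detected and 5 at 0, among them all 3 Mir124a genes. Genes known to give the same mature form, such as the Mir124a genes or the Mir1a genes, lose the reads they share, so a low count there need not mean a low level. The part of these differences between the libraries in the ratios of the cluster was not tested.

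The cluster held 55669 reads in replicate 1 and 72326 in replicate 2. As a share of gene-assigned reads this was 3.49% (exact 95% binomial interval 3.46 to 3.52) and 3.48% (3.46 to 3.51), or 3.49% ± 0.00883 (SD, n = 2). Intervals here cover counting error only, since PCR copies of 1 molecule cannot be recognised. A read was found for 34 of the 39 members, and 32 were detected. By mean counts per 1000000 gene-assigned reads (CPM), 6 members were at 1000 or above, 13 between 100 and 1000, 13 between 10 and 100, and 2 above 0 but under 10. The other 5, Mir1197, Mir654, Mir544, Mir453 and Gm27379, had no read in either library. A count of 0 allows up to 1.88 CPM in replicate 1 and 1.44 CPM in replicate 2.

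Mir411 was the highest member, with 26999 and 29307 reads in replicates 1 and 2. That was 48.5% and 40.5% of all cluster reads, and Mir411 ranked 17th of all genes by mean CPM. Ranks here count gene-assigned reads only, so genes that lose reads matching several places may stand too low. Mir379, which gives the cluster its name and lies 1115 bases upstream of Mir411 at chr12:109709060-109709125, had 10988 and 16664 reads and ranked 23rd. Together these neighbours held 65.9% ± 3.31 of the cluster (SD, n = 2). Mir411 exceeded Mir379 in both libraries.

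Mir541, near the far end of the cluster and inside Mirg, had 3400 and 5231 reads. Mir382, also inside Mirg, had 2982 and 5549. Their order differed between the libraries, so the third place was not settled by these data. Mir376c had 2493 and 2896 reads and Mir299a 1713 and 2209. These 4 members stood between 1063 and 2670 CPM in each library, all below Mir379 and above every other member.

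Mir369 had 1151 and 1415 reads, Mir487b 703 and 1863, Mir154 683 and 1088, and Mir409 512 and 753. Mir154 gives its name to the large family of related hairpins in this cluster. Mir369 exceeded Mir154 in both libraries, whereas Mir487b lay below Mir369 in replicate 1 and above it in replicate 2. The 10 highest members together held 92.7% ± 0.0935 of cluster reads (n = 2), and 9 members were among the 10 highest of both libraries. The highest detected member had 900.0 times the reads of the lowest in replicate 1 and 1274 times in replicate 2.

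**Figure D1:**
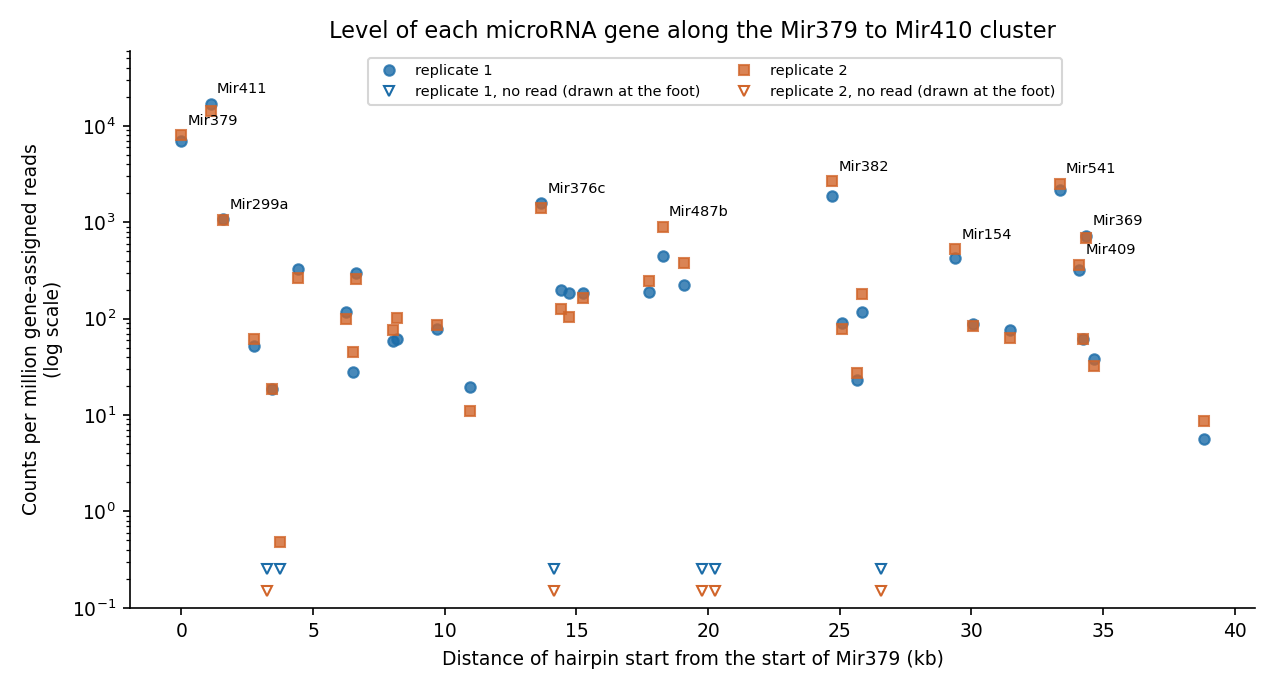
CPM on a log scale against the distance of each hairpin start from Mir379 in kilobases, 1 point for each of 39 members in each of 2 libraries, with members without a read at the foot. Members above 1000 CPM stand from the start of the cluster to Mir541, no member beyond Mir541 reaches that level, and Mir376c, Mir382 and Mir541 each adjoin a member under 100 CPM.

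The members start within 38.8 kb, with a median distance of 632 bases between successive starts. Over all 39 members the mean log2(CPM + 1) had a Spearman's rho of -0.05 and a Pearson's r of -0.04 with the start position, given as a description, since the members share 2 libraries. The rho was -0.04 in replicate 1 and -0.07 in replicate 2. It turned to 0.07 without the members whose hairpins share a stretch of 20 bases with another hairpin, and to 0.000714 with counts taken without regard to strand.

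Reads were concentrated at the start of the cluster. The midpoint between the first and the last start divided the cluster into 23 proximal members, of which 20 were detected, and 16 distal members, of which 12 were detected. The proximal members held 81.0% ± 2.71 of cluster reads and the distal ones 19.0% ± 2.71 (SD, n = 2). Without the 6 members that share a stretch of 20 bases, Mir411 among them, the distal share was 41.5%. All distal reads came from the 14 members inside Mirg (chr12:109729764-109749460), a noncoding RNA gene on the same strand. Without Mir411 and Mir379, the proximal members together held 15.1% ± 0.597. The median level of detected members was 168 CPM among proximal and 117 CPM among distal members.

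**Figure D2:**
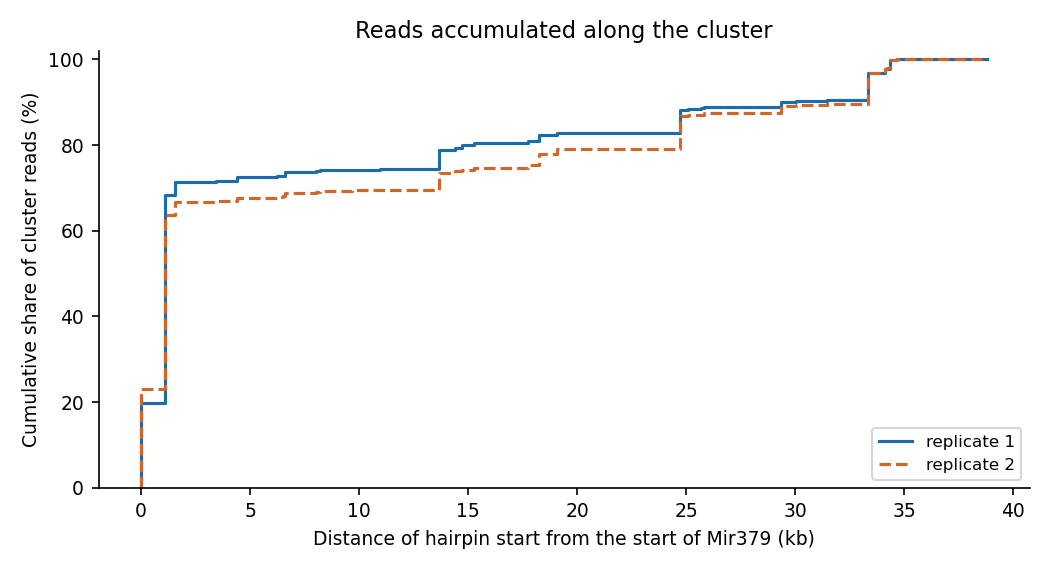
Cumulative percentage of cluster reads against distance from the start of Mir379 in kilobases, 1 line for each library. Mir379 and Mir411 take both lines to 68.2% and 63.6%, and later steps fall at Mir376c, Mir382 and Mir541.

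Neighbours often differed widely in reads. Between successive detected members the absolute difference of mean log2(CPM + 1) had a median of 2.40 over 31 pairs, and 17 pairs differed by more than 4-fold. The direction was the same in both libraries for 30 of the 31 pairs. Adapters join to different RNAs with different efficiency, so these are differences in counts and need not be differences in the amount of microRNA.

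The 3 largest of these steps were found next to members of the top 5. From Mir667 to Mir376c, 2712 bases downstream, the level rose 94.0-fold, from 31 and 23 reads to 2493 and 2896. From Mir377, with 121 and 132 reads, to Mir541, 1899 bases on, it rose 32.9-fold. From Mir382 to Mir134, only 368 bases away, it fell 26.6-fold, and Mir134 had 142 and 161 reads. In each of these pairs the higher member exceeded the lower one in both libraries, with no overlap of their values. At the far end, Mir412 and Mir369 start 129 bases apart and differed 11.2-fold, and Mir410, 297 bases beyond Mir369, was 19.4-fold below it with 61 and 67 reads. Mir412 and Mir410 were named after their values were seen. The last member, Mir3072 at chr12:109747878-109747960, had 9 and 18 reads and was not detected by the minimum of 10.

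Members with known roles in neurons or vessels are given next, chosen after their values were seen. Mir134 and Mir485, known for limiting growth of dendritic spines and synapses in neurons, had 142 and 161, and 187 and 371 reads. Mir329, Mir487b, Mir494 and Mir495 are known for restraining the growth of blood vessels after ischaemia in the mouse hindlimb. Mir329 had 521 and 549 reads, Mir494 187 and 204, and Mir495 124 and 180. Of these 4, Mir487b was the highest in both libraries.

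The Mir376 genes, whose transcripts are known for A-to-I editing, lie close together and were unequal. Mir376c exceeded Mir376b 9.36-fold, on 313 and 260 reads of Mir376b, and Mir376a had 295 and 216. Mir376b and Mir376a differed by 0.18 on the log2(CPM + 1) scale, with Mir376b above Mir376a in both libraries. Mir300 and Mir381, whose 3p forms match each other's hairpin with 3 mismatches, had 296 and 339, and 305 and 514 reads. This pair was named for that likeness and not for its level, ratio or step.

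The hairpins resemble each other. Of the 36 members with a hairpin in RefSeq, 32 had their best global alignment, with end gaps free, among 1005 mouse hairpins within the cluster and 4 outside it (Mir679, Mir654, Mir541 and Mir3072). For 7 members the best match was the member directly before or after it on the chromosome. Examples are Mir411 for Mir379 with 53 identical bases, Mir543 for Mir495 with 53 and Mir300 for Mir381 with 59. Mir494 was the best match within the cluster for Mir382, Mir154, Mir487b, Mir539, Mir485, Mir323 and Mir329. Mir541 had only 28 bases in common with its best match in the cluster, Mir380. Members with many and with few reads were found in the related group.

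Short runs of letters recurred as well. The motif UACUUG, searched on the strand of the hairpin, was in 10 of 36 cluster hairpins (27.8%), in 0 of 16 hairpins of the neighbouring imprinted blocks and in 2.59% of all mouse hairpins. AGUAUC was in 7 (19.4%), against 2.09% of all. These motifs were chosen after the hairpins were seen, and a match is a description of letters only.

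Hairpin GC content ran from 29.1% in Mir376c to 72.3% in Mir3072, with a median of 43.3%, against 51.7% over all mouse hairpins. Among the 31 detected members with a hairpin, level had a Spearman's rho of -0.35 with GC content, 0.11 with the predicted folding energy and 0.10 with gene length, as descriptions. Mir667 and Mir134, with GC contents of 62.0% and 60.6%, had mean levels under 100 CPM. Such levels were not particular to high GC content. The 13 members between 10 and 100 CPM also included Mir495 at 34.9% and Mir410 at 40.7%. The ratio between the libraries had a rho of 0.08 with GC content and -0.37 with length.

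**Figure D3:**
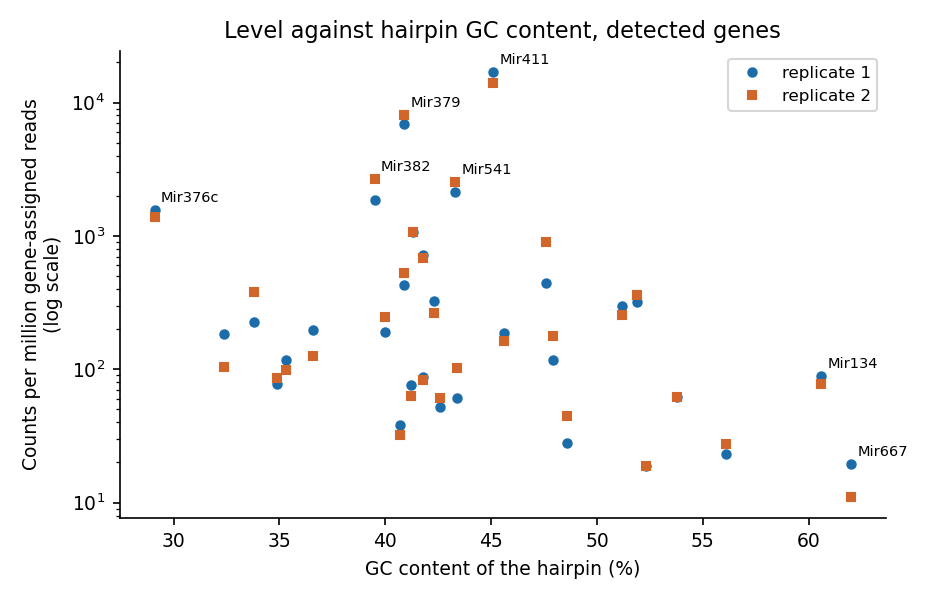
CPM on a log scale against the GC content of the hairpin in percent, for the 31 detected members with a RefSeq hairpin in 2 libraries. The 5 highest members lie between 29.1% and 45.1%, and Mir134 and Mir667 lie on the right under 100 CPM.

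The study has no second condition, so the only comparison is between the 2 libraries. A two-sided exact binomial test, with library sizes scaled by TMM factors and p-values adjusted over all 273 detected genes (Benjamini-Hochberg, 0.05), asked whether the reads of a gene divided as the scaled sizes would give. It takes account of counting error only and not of spread between animals. It called 63.0% of all detected genes, 33.3% as higher and 29.7% as lower in replicate 2. Of the 32 detected members, 12 (37.5%) were higher in replicate 2, 5 (15.6%) were lower and 15 did not pass. An alternative that adds a spread beyond counting error, the exact test of edgeR with a dispersion common to all genes (coefficient of variation 0.335, estimated from these libraries), called 0 members. There 0 members had an unadjusted p under 0.05, and 1.47% of all detected genes passed, 1.10% as higher and 0.366% as lower. Its dispersion was estimated with both libraries as 1 group, so the differences between them were themselves counted as spread. Its 0 calls therefore cannot show that members were equal.

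Mir487b had the highest ratio, with 703 reads in replicate 1 and 1863 in replicate 2, which was 2.13-fold higher (95% counting interval 1.95 to 2.33, adjusted p = 1.38e-70, exact binomial test). It was the only member over 2-fold, against 33 of all 273 detected genes. Mir539, 796 bases downstream of Mir487b, rose from 358 to 791 reads, 1.78-fold (1.56 to 2.02). Mir543 rose from 97 to 213 reads, 1.76-fold (1.38 to 2.27). Among the high members, Mir382 was 1.5-fold higher (1.43 to 1.56), Mir541 1.24-fold (1.18 to 1.29) and Mir379 1.22-fold (1.19 to 1.25).

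The lowest ratios among called members were those of Mir376a, on 295 and 216 reads, at 0.588 (0.491 to 0.704), Mir376b at 0.667 (0.564 to 0.789) and Mir329 at 0.847 (0.750 to 0.956). Mir376c was called lower too, at 0.933 (0.884 to 0.985). All 3 Mir376 genes were thus lower in replicate 2 by this test. Mir376b and Mir376c carry the uncertainty of near-identical forms given above. Mir411 was lower at 0.872 (0.858 to 0.887), while its neighbour Mir379 was higher. Called higher as well were Mir381, Mir485, Mir154, Mir409, Mir679 and Mir666, with ratios from 1.18 to 1.66. With scaling by total reads the calls of Mir666, Mir409 and Mir1193 changed. Mir299a, 463 bases beyond Mir411, had a ratio of 1.04 (0.972 to 1.10) and did not pass.

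Among the 12 detected distal members, 5 were called higher, 0 lower and 7 neither. Among the 20 proximal ones, 7 were called higher, 5 lower and 8 neither. Over all detected genes 33.3% were called higher and 29.7% lower. The 0 lower calls among distal members lay under that share. Members share the same libraries and are not replicates, so these counts are no result about proximal or distal members. The summed distal reads, 9523 and 15144, were 1.28-fold higher in replicate 2 (1.25 to 1.31), and the summed proximal reads, 46146 and 57182, had a ratio of 0.996 (0.983 to 1.01). With scaling by total reads the distal ratio was 1.22 (1.19 to 1.25). Without Mir541 the distal ratio was 1.30 (1.26 to 1.34), and without Mir382 it was 1.18 (1.14 to 1.22). Without both Mir382 and Mir541 it was 1.12 (1.07 to 1.17). The proximal members other than Mir379 and Mir411 had a ratio of 1.10 (1.07 to 1.14). The difference between proximal and distal members was not tested against spread between animals, and the ratio of a member had a Spearman's rho of only 0.11 with its position.

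**Figure D4:**
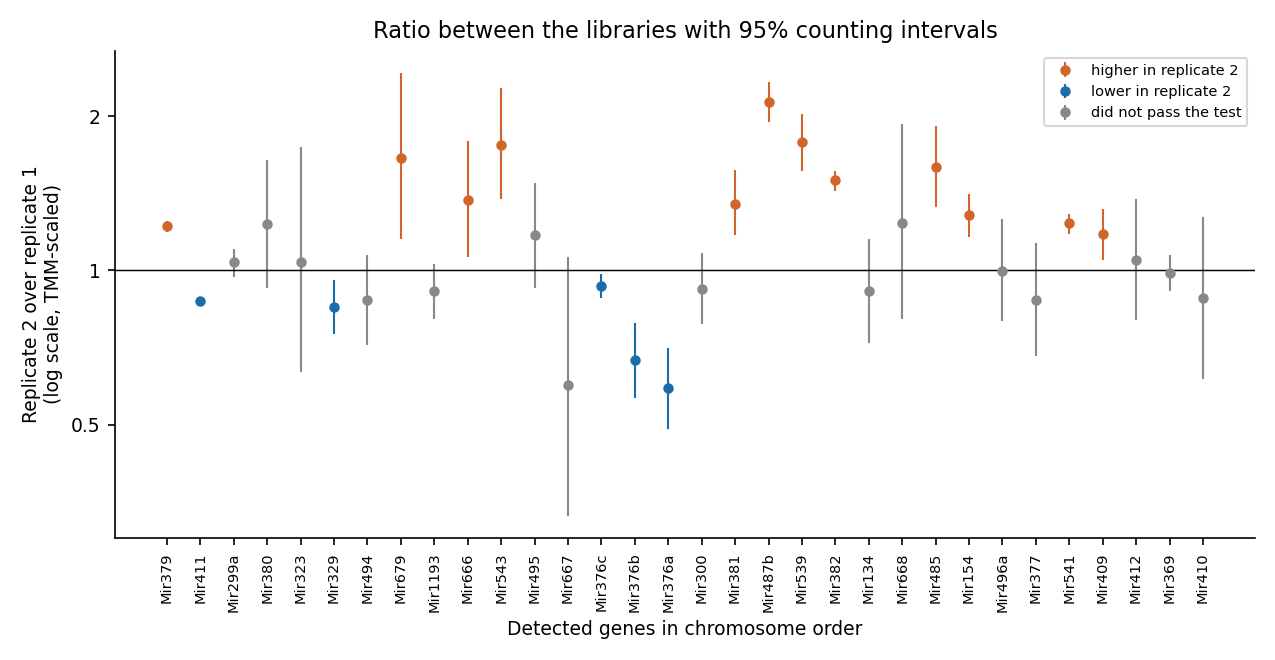
Ratio of replicate 2 over replicate 1 after TMM scaling on a log scale, with exact 95% counting intervals, for the 32 detected members in chromosome order. Mir487b lies above 2, the Mir376 genes lie below 1, and 15 members did not pass the test.

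The median log2 ratio of the 32 detected members was 0.07, beside 0.02 for all 273 detected genes. With scaling by total reads the median was -0.000906 for members and -0.05 for all detected genes. The SD of the log2 ratio was 0.44 over members and 0.76 over all detected genes, and the median absolute value was 0.26 against 0.36. These spreads were not compared by a test. Log2 ratios of members ran from -0.77 to 1.09. The summed cluster had a ratio of 1.04 (1.03 to 1.06), and of 1.21 (1.19 to 1.22) without Mir411, on 28670 and 43019 reads.

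Upstream in the same imprinted region lie further microRNA genes on the plus strand. Of 20 listed, 16 were matched there, 12 on the Meg3 and Rtl1-antisense side and 4 on the Rian side. The Meg3 and Rtl1-antisense side includes Mir127, known for silencing the growth gene Rtl1 from the opposite strand. It held 36985 and 57506 reads, 2.54% ± 0.316 of gene-assigned reads (SD, n = 2), with 11 of 12 detected. The Rian side held 312 and 431 reads, 0.0202% ± 0.000823, with 2 of 4 detected. One gene led each block, Mir127 with 75.0% of its block's reads, Mir341 with 87.9% and Mir411 with 44.5%.

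Between the libraries, the summed Meg3 and Rtl1-antisense side was 1.25-fold higher in replicate 2 (1.23 to 1.27), with 5 of 11 detected members called higher and 3 lower, beside 33.3% and 29.7% of all detected genes. The Rian side had a ratio of 1.11 (0.957 to 1.29), with 0 called. The interval of the Meg3 and Rtl1-antisense side lay above that of the Mir379 to Mir410 cluster, 1.03 to 1.06, which is a difference beyond counting error between 2 libraries and no more. Mir127 alone had a ratio of 1.32 (1.30 to 1.34). The median log2 ratio of detected members was 0.07 on the Meg3 and Rtl1-antisense side and 0.07 in the Mir379 to Mir410 cluster.

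**Figure D5:**
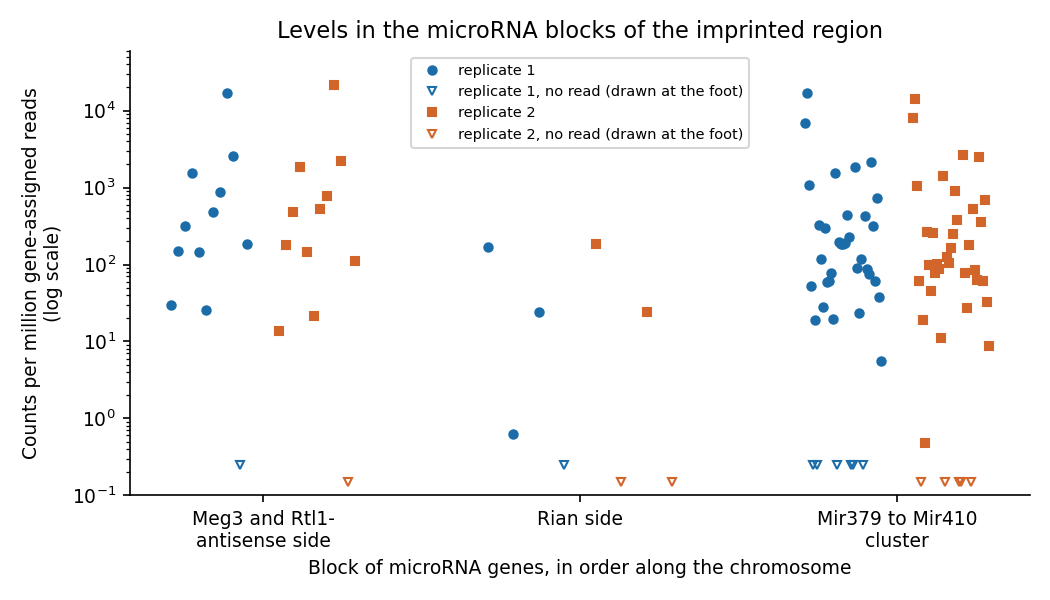
CPM on a log scale for the members of 3 blocks of the imprinted region in chromosome order, 1 point for each gene and library, with genes without a read at the foot. Mir127 in the first block and Mir411 in the last stand highest, and the highest member of the Rian side, Mir341, lies at 171 and 183 CPM.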

How the data were processed

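Per the labels, microRNA-seq was made from total RNA. The authors deposited unnormalized counts for each microRNA gene, made on mm10 with annotation M21 per the file headers (a read-me text). For the aligner and the counter, no name is given in the sources used here. The 3 unnamed count columns were read from their values as counts without regard to strand, on the strand of the gene and on the opposite strand; the second was used. The 4 summary rows stayed out of totals and tests; unmapped reads were 6.37% and 5.98% of all reads, and reads outside microRNA genes 1.49% and 1.65%. The opposite strand held no read at any member.

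Symbols and positions of all 2202 identifiers came from GENCODE M21, and sequences from RefSeq. TMM factors and the dispersion test used edgeR 4.0.16, and size factors DESeq2 1.42.0, in R 4.3.3. Other steps used Python 3.11.15, scipy 1.17.1, pandas 2.3.3, numpy 2.4.6, Biopython 1.88, matplotlib 3.10.9 and RNAfold of ViennaRNA 2.7.2. Levels in log2 had a pseudocount of 1 CPM. The binomial test was also run on simulated counts with counting error only. It called 0 of 285 genes where no gene was changed. That simulation had no further spread between libraries, so it cannot show how often the test errs in these data.

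Named were the 10 highest members, 3 highest and 3 lowest ratios passing the test with a mean of at least 100 reads, members at the 3 largest steps, and the first and last; others are marked in the text. Of the imprinted list, Mir3070-1 and Mir3070-2 found no match and 2 genes lay on the minus strand. Members and lists were chosen with earlier results of these data known.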

Additional observations from a re-analysis of the deposited data

Results flagged for a closer look

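Some reads stand in the summary rows of the tables and in no gene, at levels over the limit of 3 counts for an empty row. Those with several matches in the genome came to 7195252 for replicate 1 and 10919725 for replicate 2. Those with a single match that lies in no microRNA gene came to 142257 and 232773. How many of these came from the Mir379 to Mir410 cluster cannot be read from the tables.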

How the results depend on the processing

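Among values under alternative settings, 28 stayed within their limits of change, 11 moved and 5 changed sign. Without regard to strand, Mir299a, Mir380, Mir376a, Mir539 and Mir409, which have a gene on the other strand, were at 0 and 27 members were detected; the cluster share was 4.74%, the 3 highest members held 76.8% of cluster reads, and the rho of level with position was 0.000714. Without the most abundant gene the share was 4.15% and the cluster ratio 1.02. With scaling by total reads the cluster ratio was 0.996 and the median log2 ratio -0.000906, and 3 calls changed (Mir1193, Mir666 and Mir409); the median was -0.00985 with no read minimum and 0.03 with at least 50 reads in both libraries. At edgeR's common dispersion 0 members were higher and 0 lower, in place of 12 and 5. Pearson's r of level with position was -0.02 with a pseudocount of 0.1 CPM and -0.08 with 10 CPM. Without members sharing a stretch of 20 bases, which leaves out Mir411, the rho was 0.07, the distal members held 41.5% and the 3 highest members 75.4%. With either library alone, the share was 3.48% to 3.49%, detected members 32 to 33, the rho -0.07 to -0.04, the distal share 17.1% to 20.9% and that of the 3 highest 70.8% to 74.3%. Ratios need both libraries, so none could be given without one. No paired analysis was possible because there is 1 group. For changes not explained by which genes were left out, the cause was not tested.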
